A study of Mus musculus with 12 samples.

Results

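Cathepsins are the lysosomal proteases of macrophages and cystatins are their inhibitors, and 10 of these genes were followed through classical activation of mouse peritoneal macrophages with and without emodin. They were 8 cathepsins (Ctsb, Ctsc, Ctsd, Ctsh, Ctsk, Ctsl, Ctss and Ctsz) and 2 cystatins (Cst3 and Cst7), taken as every array probe whose RefSeq accession maps to one of these symbols. The 10 genes had 11 probes and all 10 were among the 13164 genes tested. All animals were wild-type C57BL/6 mice, and the macrophages were cells that stuck to plastic before an overnight culture without serum. In the group called LPS_IFNg_emodin, cells from mice of 9 weeks received bacterial lipopolysaccharide (LPS, 100 ng/ml), interferon gamma (IFNg, 20 ng/ml) and the plant anthraquinone emodin (50 uM) for 20 h. The LPS_IFNg group, also from mice of 9 weeks, received the same LPS and IFNg without emodin. Control cells came from mice of 8 weeks and received vehicle. Each group had 4 arrays, described as biological replicates. The labels do not say whether each was a separate animal, so p-values here reflect only how far these samples varied. Emodin was tested only together with LPS and IFNg at this 1 dose and time.

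Most cathepsins are made as inactive precursors, carried to endosomes and lysosomes by mannose 6-phosphate receptors or sortilin, and matured there by proteolysis. In macrophages they degrade ingested and intracellular protein, trim the invariant chain of MHC class II and, in the case of cathepsin C, activate serine proteases of granules. Cystatins of the secreted and the lysosomal type block the papain-like cathepsins. Cathepsin D, an aspartic protease, is not a target of theirs.

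Levels are given as the log2 of the scanner's processed signal minus the log2 of the 75th percentile of that array, a scale on which 1 unit is a doubling. A level compares arrays for 1 probe and does not rank genes against each other. Between 45.4% and 50.8% of the probes of an array were well above background, and every probe used for the 10 genes was so on all 12 arrays except that of Cst7, which was well above background on 1 of the 4 control arrays. No member probe was saturated. The 5 macrophage markers on the array that were sought (Adgre1, Csf1r, Itgam, Mertk and Lyz2) were well above background on all arrays, with a summed signal of 425 to 494 times the 75th percentile in LPS_IFNg_emodin, 339 to 395 in LPS_IFNg and 513 to 526 in control cells. Lyz2 and Csf1r carried most of this sum. Lyz2 and Itgam were lowest in LPS_IFNg, whereas Adgre1 and Mertk were highest there. Of 3 resident peritoneal macrophage markers, Gata6 and Icam2 were well above background on all arrays, and Timd4 was so on no LPS_IFNg_emodin array. All 3 had their lowest mean level in LPS_IFNg_emodin. The design text names a blood leukocyte where the tissue label names peritoneal macrophages. Of 7 neutrophil markers on the array, Elane, Camp and Mmp8 were well above background on all arrays, Ngp was above background on no array and 4 (Ngp, Mpo, Ltf and Cxcr2) were so on no LPS_IFNg array. In these bulk samples, fewer cells of a type and less RNA per cell cannot be told apart. The control arrays lay on another slide than both stimulated groups, and control mice were 8 rather than 9 weeks old. Slide, age and treatment thus cannot be told apart in comparisons with control cells. The mean log2 signal of 7 spike-in control RNAs was 10.78 on control arrays, 13.38 in LPS_IFNg and 13.29 in LPS_IFNg_emodin. Scaling to spike-ins was done only between the stimulated groups, so comparisons with control cells lack it. Replicate 3 of both stimulated groups was labelled female and carried signal of the Y-linked Ddx3y and Eif2s3y without Xist, while control replicates 3 and 4 were labelled male and carried Xist. Leaving out replicate 3 of both stimulated groups changed no call of a member gene.

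LPS and IFNg moved the 10 genes in different directions. Against control cells, 5 were higher in LPS_IFNg (Cst7, Ctsc, Ctsh, Ctss and Ctsz), 2 were lower (Ctsd and Ctsl), and 3 (Ctsb, Ctsk and Cst3) did not pass the test (limma across all genes, Benjamini-Hochberg adjusted p under 0.05). Of all genes tested, 69.1% were called in this comparison (33.6% higher and 35.5% lower), so the 7 of 10 called here were close to the background. With emodin added, 7 were higher than in LPS_IFNg (Ctsd, Ctsl, Cst3, Ctsz, Ctsb, Ctsk and Ctss), 2 were lower (Cst7 and Ctsc) and Ctsh did not pass, but only Ctsd and Ctsl were called higher under quantile scaling and under spike-in scaling. Of all genes, 72.2% were called, 36.6% higher and 35.6% lower. For the same 7 genes in the first comparison and the same 9 in the second, every array of one group lay beyond every array of the other, as it did for 64.4% and 67.7% of all genes. The median difference of the 10 genes was 0.16 between LPS_IFNg and control cells, where that of all genes was -0.04. Between LPS_IFNg_emodin and LPS_IFNg it was 0.53, where that of all genes was 0.02.

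**Figure D1:**
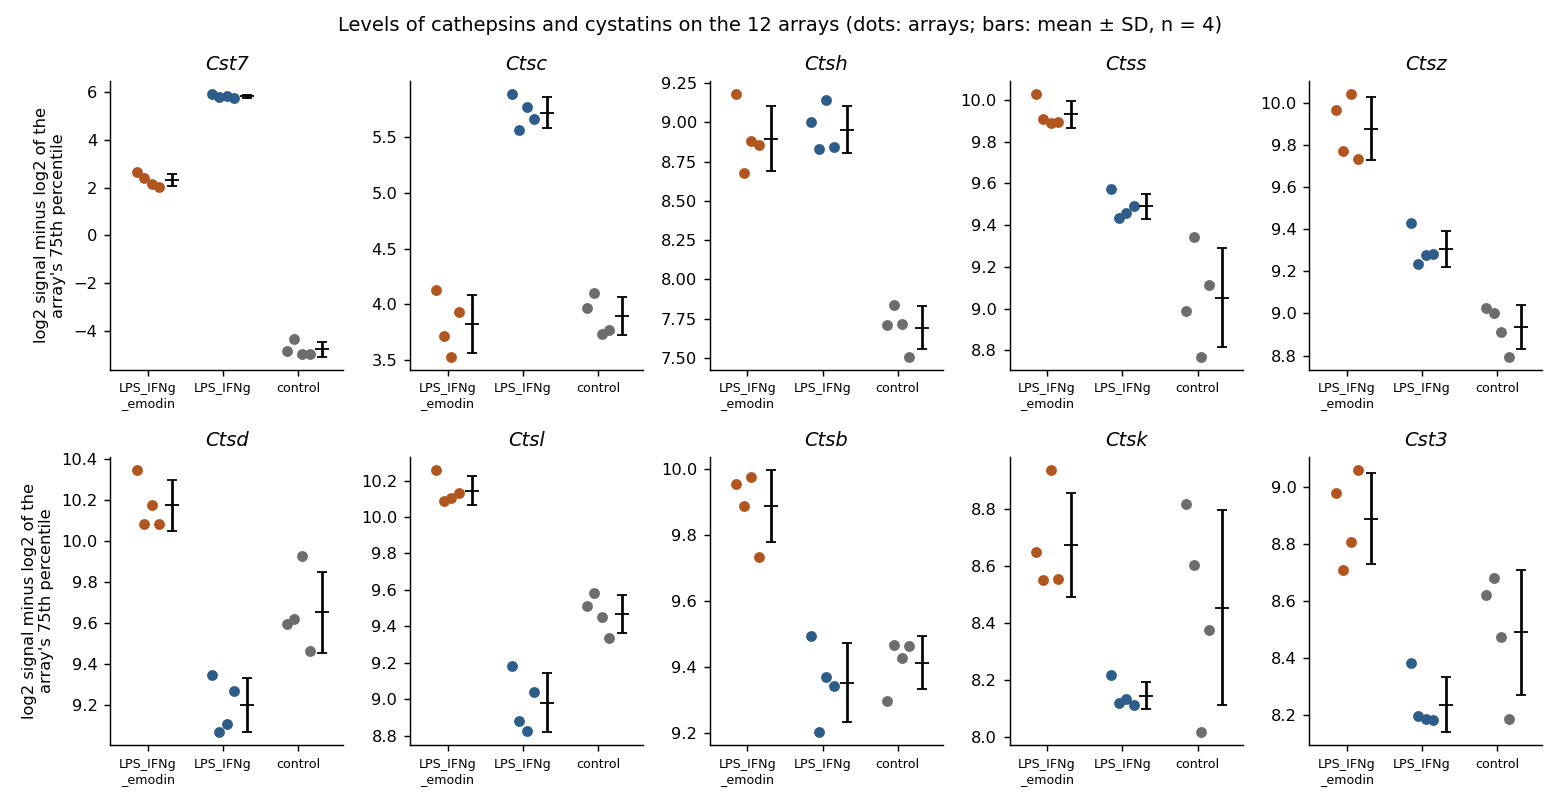
Level of each of the 10 genes (log2 processed signal minus log2 of the array's 75th percentile) on the 12 arrays, with LPS_IFNg_emodin, LPS_IFNg and control from left to right. Dots are arrays, bars are means with SD (n = 4), and each panel has its own vertical range. Cst7 and Ctsc peaked in LPS_IFNg, whereas Ctsd, Ctsl, Ctsb, Ctsz, Ctss and Cst3 were highest in LPS_IFNg_emodin without overlap on this scale.

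The genes differed in the sequence before their start sites. RefSeq windows of GRCm38.p6, from 250 bases before to 50 after a start, were at hand for 8 of the 10 genes, and 7 were used, because that of Ctsl lies wholly within the span of the gene. The 250 bases before the start are printed for 3 genes, to show members that stood in a different order across the groups on the 75th percentile scale. Capitals mark the motif searched: CACGTG (E-box) and its extension TCACGTGA (CLEAR, the element bound by TFEB) in Ctsd, and GAAA, any pair of bases and GAAA again (the core of the interferon-stimulated response element, ISRE) in Ctss. The window of Cst7 held none of the motifs searched and has no capitals.
Ctsd, chr7:142387828-142388077, minus strand: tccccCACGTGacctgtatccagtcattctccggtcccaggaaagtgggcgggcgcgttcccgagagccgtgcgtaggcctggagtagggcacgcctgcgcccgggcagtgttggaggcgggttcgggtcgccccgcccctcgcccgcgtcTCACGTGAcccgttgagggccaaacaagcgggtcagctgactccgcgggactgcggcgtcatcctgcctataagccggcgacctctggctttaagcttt
Ctss, chr3:95526536-95526785, plus strand: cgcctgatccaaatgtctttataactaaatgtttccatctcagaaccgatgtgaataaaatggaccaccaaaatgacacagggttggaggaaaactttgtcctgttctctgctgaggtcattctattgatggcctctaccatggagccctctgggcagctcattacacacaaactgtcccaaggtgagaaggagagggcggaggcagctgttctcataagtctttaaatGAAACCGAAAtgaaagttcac
Cst7, chr2:150570165-150570414, plus strand: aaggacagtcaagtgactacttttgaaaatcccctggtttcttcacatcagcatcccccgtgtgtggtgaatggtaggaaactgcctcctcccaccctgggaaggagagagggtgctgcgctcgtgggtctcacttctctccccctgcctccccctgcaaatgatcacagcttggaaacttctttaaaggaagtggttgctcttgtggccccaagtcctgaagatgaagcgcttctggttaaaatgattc
Both strands were searched, and positions count from 0 at the start site. CACGTG was in 7.15% of 32851 RefSeq promoter windows and, among the 7 members, in Ctsd alone, at positions -245 to -240 and -98 to -93. The second copy lies inside the TCACGTGA match at -99 to -92, a motif found in 0.974% of windows. The ISRE core, held by 3.44% of windows, was in Ctss at -21 to -12. The kappa B motif of NF-kB was in 4.51% of windows and in no member. The PU.1 core GAGGAA was in 28.3% of windows and in Ctsc, Ctsk, Ctss and Cst3. GGGCGG (Sp1) was in 35.7% and in Ctsc, Ctsd, Ctss, Ctsz and Cst3. TATAAA was in 13.6% and in Ctss, and CCAAT in 37.4% and in Ctsz. These matches describe letters in a window and say nothing of binding.

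Cst7 and Ctsc, an inhibitor and its target, both rose with LPS and IFNg and were lower again with emodin. Cst7 encodes cystatin F, a cystatin of blood-derived cells that is sent to lysosomes and inhibits cathepsin C. Its levels were 2.64, 2.41, 2.16 and 2.04 in LPS_IFNg_emodin, 5.90, 5.77, 5.83 and 5.72 in LPS_IFNg, and -4.82, -4.32, -4.94 and -4.96 in control cells. The 3 groups were far apart, with LPS_IFNg highest and control arrays at or near background. The log2 difference between LPS_IFNg and control was 10.57 ± 0.16 (SE, adjusted p = 3.92e-13), the widest of the 10 genes. It corresponds to 1517-fold at the measured control signal, and to 1374-fold where control arrays below background were set to the lowest signal well above background on that array. With the normexp background correction, which lifts dim signals, the log2 difference was 8.54, so the size of this rise depends on how the control background is treated. Emodin cells were 11.3-fold below LPS_IFNg cells (log2 difference -3.49 ± 0.16, adjusted p = 4.79e-09) and still 135-fold above control cells (7.07, adjusted p = 6.31e-12), or 122-fold with the same floor. The normexp value of that last difference was 4.97 on the log2 scale.

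Ctsc encodes dipeptidyl peptidase 1, which activates granule serine proteases. Its levels were 4.13, 3.72, 3.53 and 3.93 in LPS_IFNg_emodin, 5.88, 5.56, 5.76 and 5.66 in LPS_IFNg, and 3.97, 4.10, 3.74 and 3.77 in control cells. All LPS_IFNg arrays lay above all others, and the emodin and control arrays overlapped. Ctsc was 3.53-fold higher in LPS_IFNg than in control cells (log2 difference 1.82 ± 0.13, adjusted p = 1.58e-07) and 3.70-fold lower in LPS_IFNg_emodin than in LPS_IFNg (-1.89 ± 0.13, adjusted p = 1.44e-07). Between LPS_IFNg_emodin and control cells the difference was -0.07 ± 0.13 (adjusted p = 0.658), and under quantile scaling it was -0.32 and called (adjusted p = 0.024). Both genes were lower with emodin in 4 of 4 same-numbered pairs of arrays and under every scaling tried.

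Ctsh, Ctss and Ctsz were higher in both stimulated groups than in control cells. Ctsh, an aminopeptidase, had levels of 9.18, 8.68, 8.88 and 8.86 in LPS_IFNg_emodin, 9.00, 8.83, 9.14 and 8.84 in LPS_IFNg, and 7.71, 7.84, 7.72 and 7.51 in control cells. Both stimulated groups lay above all control arrays and overlapped each other. LPS_IFNg was 2.40-fold above control (1.26 ± 0.12, adjusted p = 1.27e-06). The difference of LPS_IFNg_emodin from LPS_IFNg was -0.06 ± 0.12 (adjusted p = 0.673), but -0.54 under quantile scaling and -0.75 under spike-in scaling, both called lower.

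Ctss encodes the cathepsin that trims the invariant chain in antigen-presenting cells. Its levels were 10.03, 9.91, 9.89 and 9.90 in LPS_IFNg_emodin, 9.58, 9.44, 9.46 and 9.49 in LPS_IFNg, and 8.99, 9.34, 8.77 and 9.11 in control cells. The 3 groups did not overlap and stood in that order. LPS_IFNg was 1.35-fold above control (0.44 ± 0.10, adjusted p = 0.00265), a call lost under quantile scaling at 0.22 (adjusted p = 0.0501). LPS_IFNg_emodin was a further 1.36-fold above LPS_IFNg (0.44 ± 0.10, adjusted p = 0.00229), a difference that turned to -0.04 under quantile scaling and -0.25 under spike-in scaling, neither of them called. Ctsz, a carboxypeptidase, spanned 9.73 to 10.04 in LPS_IFNg_emodin, 9.24 to 9.43 in LPS_IFNg and 8.80 to 9.03 in control cells. It thus had the same order of groups without overlap, with differences of 0.37 ± 0.09 between LPS_IFNg and control (adjusted p = 0.00242) and 0.57 ± 0.09 between LPS_IFNg_emodin and LPS_IFNg (adjusted p = 9.78e-05). The emodin difference of Ctsz was 0.08 under quantile scaling and -0.12 under spike-in scaling, neither of them called. Ctsk and Ctss are neighbours on chromosome 3 with 0 protein-coding genes between them. In LPS_IFNg against control, Ctss was called and Ctsk was not on the 75th percentile scale, and the reverse held under quantile scaling, where Ctsk was lower (-0.49, adjusted p = 0.0104). The difference between the 2 genes was not tested.

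Ctsd and Ctsl were lower in LPS_IFNg than in control cells and higher in LPS_IFNg_emodin than in LPS_IFNg. They also exceeded control cells with emodin on the 75th percentile scale, but not under quantile scaling (Ctsl 0.02, adjusted p = 0.825, and Ctsd -0.15, adjusted p = 0.0795). They are the 2 genes whose emodin difference was called upward under all 3 scalings. Ctsl, an endopeptidase of broad specificity, had levels of 10.26, 10.09, 10.11 and 10.13 in LPS_IFNg_emodin, 9.18, 8.88, 8.82 and 9.04 in LPS_IFNg, and 9.51, 9.58, 9.45 and 9.34 in control cells. No groups overlapped. It was 1.40-fold lower in LPS_IFNg than in control cells (-0.49 ± 0.09, adjusted p = 4.18e-04) and 2.24-fold higher with emodin than in LPS_IFNg (1.16 ± 0.09, adjusted p = 3.14e-07). The emodin difference was 0.68 under quantile scaling and 0.47 under spike-in scaling.

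Ctsd, the aspartic protease of lysosomes, had levels of 10.35, 10.09, 10.18 and 10.08 in LPS_IFNg_emodin, 9.35, 9.07, 9.11 and 9.27 in LPS_IFNg, and 9.60, 9.62, 9.93 and 9.46 in control cells. Again the LPS_IFNg arrays were lowest, the emodin arrays highest, and no groups overlapped. The difference was -0.45 ± 0.11 between LPS_IFNg and control (adjusted p = 0.00264) and 0.98 ± 0.11 between LPS_IFNg_emodin and LPS_IFNg (adjusted p = 6.44e-06), or 1.97-fold. Under quantile scaling the emodin difference was 0.50 and under spike-in scaling 0.28 (adjusted p = 0.0461). A second probe of Ctsd gave -1.02 ± 0.08 and 1.18 ± 0.08 for these comparisons (adjusted p = 3.01e-07 and 1.04e-07). The probes disagreed on LPS_IFNg_emodin against control cells, with 0.52 (adjusted p = 7.70e-04) for the one used and 0.16 (adjusted p = 0.0843) for the other. Ctsd is the member whose window above carries the CLEAR sequence.

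Ctsb, Ctsk and Cst3 did not pass the test between LPS_IFNg and control cells and were higher with emodin on the 75th percentile scale. Ctsb, an endopeptidase that also removes dipeptides, spanned 9.73 to 9.97 in LPS_IFNg_emodin, 9.20 to 9.50 in LPS_IFNg and 9.30 to 9.47 in control cells. Ctsk, the collagen-degrading cathepsin known from osteoclasts, spanned 8.55 to 8.94, 8.11 to 8.22 and 8.02 to 8.82 in the same groups. Cst3 encodes cystatin C, the main secreted cystatin, and spanned 8.71 to 9.06, 8.18 to 8.38 and 8.19 to 8.68. For all 3 genes the emodin arrays lay above the LPS_IFNg arrays, and LPS_IFNg overlapped control. The differences of LPS_IFNg_emodin from LPS_IFNg were 0.53 ± 0.08 for Ctsb (adjusted p = 8.93e-05), 0.53 ± 0.15 for Ctsk (adjusted p = 0.00716) and 0.65 ± 0.12 for Cst3 (adjusted p = 2.93e-04). None was called under quantile scaling (0.03, 0.08 and 0.20) or under spike-in scaling (-0.16, -0.17 and -0.04).

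Between LPS_IFNg and control, Ctsb differed by -0.06 ± 0.08 (adjusted p = 0.519), Ctsk by -0.31 ± 0.15 (adjusted p = 0.0852) and Cst3 by -0.25 ± 0.12 (adjusted p = 0.0684). Single arrays decided some of these calls. Without control replicate 3, Ctsk was called lower (-0.45, adjusted p = 0.00635), and Cst3 was called lower without control replicate 4 (-0.35, adjusted p = 0.00817) or without LPS_IFNg replicate 1 (-0.30, adjusted p = 0.0492). All 3 were called lower under quantile scaling, at -0.27, -0.49 and -0.44. Markers of mesothelial cells and fibroblasts and markers of osteoclasts moved in different ways. The summed signal of 11 mesothelial and fibroblast markers was 10.8 to 35.3 times the 75th percentile in LPS_IFNg_emodin, 69.6 to 134 in LPS_IFNg and 17.1 to 74.97 in control cells. Dcn and Col1a2 carried most of it. Of the 10 markers tested, 3 were higher and 4 lower in LPS_IFNg than in control cells, where 33.6% and 35.5% of all genes were. With emodin, 6 were lower than in LPS_IFNg and 0 higher, where 35.6% and 36.6% of all genes were. The summed signal of 6 osteoclast markers was 976 to 1037 in LPS_IFNg_emodin, 350 to 458 in LPS_IFNg and 227 to 340 in control cells. It was carried mostly by Acp5 and Atp6v0d2, with Calcr above background on no array. Of the 5 osteoclast markers tested, 3 (Acp5 at 1.49, Atp6v0d2 at 0.91 and Oscar at 0.47) were higher with emodin than in LPS_IFNg. The other 2 (Dcstamp at -4.19 and Ocstamp at -1.43) were lower, where 36.6% of all genes were higher and 35.6% lower. Under spike-in scaling 1 was called higher (Acp5 at 0.79) and the same 2 lower, where 9.13% and 64.7% of all genes were. Atp6v0d2 (0.21) and Oscar (-0.22) were then not called. Whether mesothelial cells, fibroblasts or osteoclasts were present, and their part in the Ctsk values, was not tested.

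**Figure D2:**
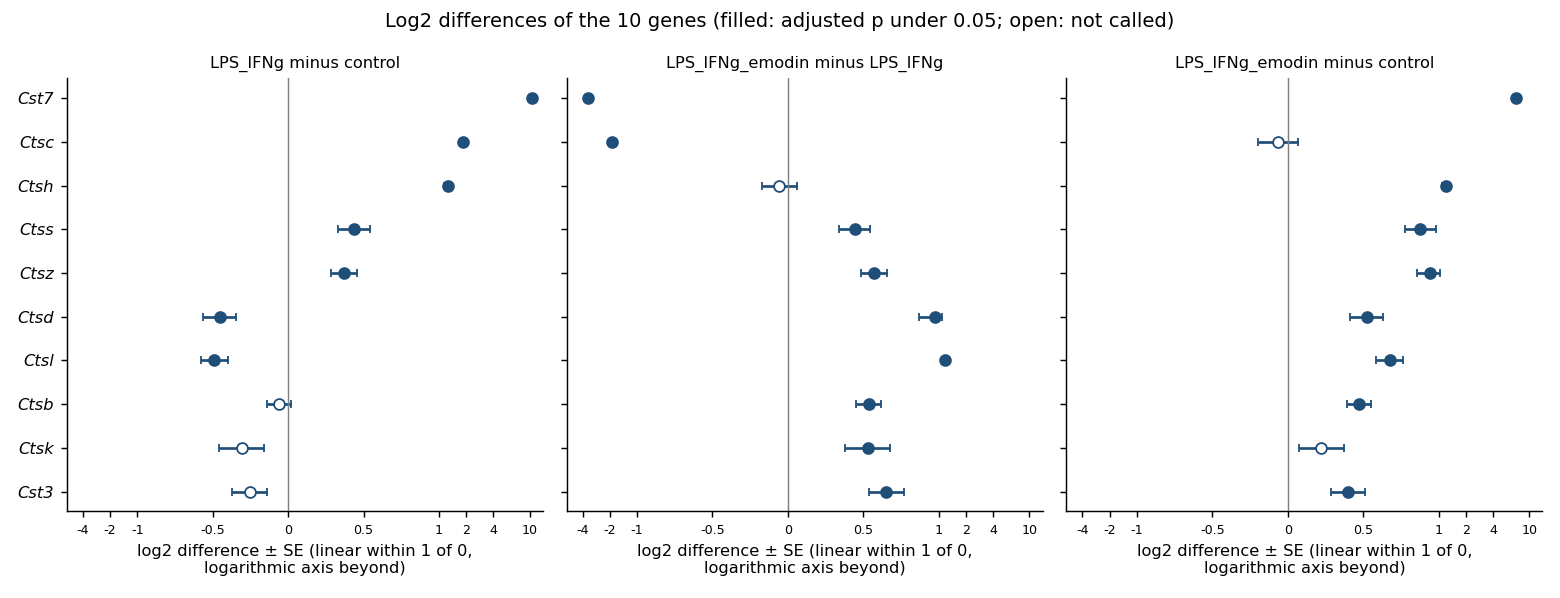
Log2 differences of the 10 genes with SE for LPS_IFNg minus control, LPS_IFNg_emodin minus LPS_IFNg and LPS_IFNg_emodin minus control, on the 75th percentile scale. The axis is linear within 1 unit of 0 and logarithmic beyond, and filled points passed the test. Cst7 and Ctsc were the genes called lower with emodin than in LPS_IFNg, and of the 7 called higher only Ctsd and Ctsl were so under quantile and spike-in scaling.

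Against control cells, 8 of the 10 genes were higher in LPS_IFNg_emodin and none was lower, while Ctsc and Ctsk did not pass the test, at -0.07 and 0.22. Of all genes, 78% were called in this comparison, 39.8% higher and 38.1% lower. The arrays of the same 8 genes did not overlap, which held for 72.6% of all genes. Beyond Cst7, the differences were 1.20 ± 0.12 for Ctsh (adjusted p = 1.16e-06), 0.94 ± 0.09 for Ctsz, 0.88 ± 0.10 for Ctss, 0.68 ± 0.09 for Ctsl, 0.52 ± 0.11 for Ctsd, 0.47 ± 0.08 for Ctsb and 0.40 ± 0.12 for Cst3. Under quantile scaling only Cst7, Ctsh and Ctsz were called higher, at 6.96, 0.56 and 0.26. Ctsb, Ctsc, Ctsk and Cst3 were then called lower, at -0.24, -0.32, -0.41 and -0.24. Among the 13164 genes tested, 4384 were called higher and 5804 lower under quantile scaling. This comparison shares its arrays with both of the others.

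The scaling of the arrays set how many of the 10 genes counted as higher with emodin. The 75th percentile of the raw signal was 435 to 547 in LPS_IFNg_emodin and 764 to 951 in LPS_IFNg, whereas the mean log2 signal of 7 spike-in control RNAs differed by -0.09 between these groups. Scaled to the spike-ins, the median difference of all genes was -0.67, with 9.13% of genes called higher and 64.7% called lower. On that scale, 2 of the 10 genes were called higher (Ctsd and Ctsl), 3 lower (Cst7 at -4.19, Ctsc at -2.58 and Ctsh at -0.75) and 5 were not called. Bright genes as a class moved on the 75th percentile scale. Among the 225 genes with a mean level of at least 8, a limit chosen after the values were seen that holds 8 of the 10 genes, 80.4% were called higher in LPS_IFNg_emodin than in LPS_IFNg, with a median of 0.52. The median of these 225 genes was 0.04 under quantile scaling and -0.17 under spike-in scaling. Against this median on each scale, Ctsl, Ctsd and, by less, Cst3 stood higher, Ctsb, Ctsk, Ctss and Ctsz lay near it, and Ctsh stood lower.

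**Figure D3:**
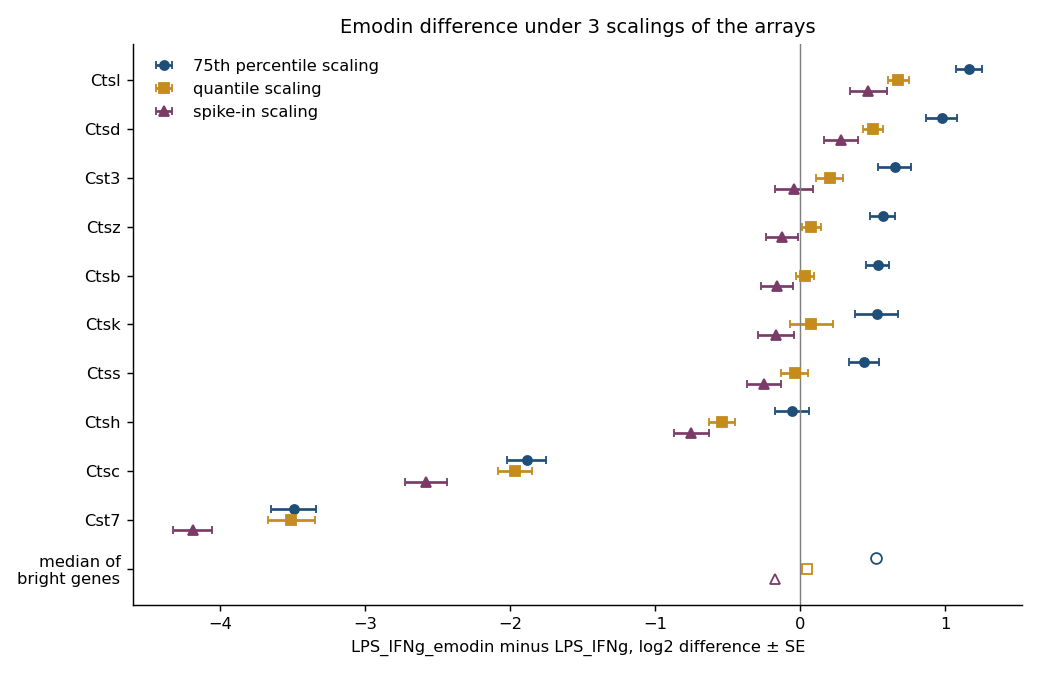
Difference of LPS_IFNg_emodin from LPS_IFNg (log2, with SE) for the 10 genes under 75th percentile, quantile and spike-in scaling, with the median of the 225 bright genes as open symbols at the bottom. Ctsl and Ctsd stayed above 0 and Ctsc and Cst7 stayed below 0 on all 3 scales, while Ctsb, Ctsk, Ctsz and Cst3 changed sign under spike-in scaling and Ctss under both alternatives.

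Across the 12 arrays, levels of some of these genes were closely correlated. The correlation was 0.97 between Ctsd and Ctsl, 0.93 between Ctsh and Cst7, 0.93 between Ctsl and Cst3, and 0.93 between Ctss and Ctsz. Ctsc and Ctsd had the lowest, at -0.79. Among all tested genes, those whose levels most resembled Cst7 were Socs1 (r = 0.999), a feedback inhibitor of cytokine signalling, and Psme1 (r = 0.997), a proteasome activator subunit. Ctsc was most like Serpinb1b and Psmb10, Ctsb most like Ctsa and Lgals3, and Ctsz most like Id2 and Card19. The nearest to Ctsl and to Ctsd included Tbc1d15 in both cases (r = 0.993 and 0.974). Ctsh was nearest to Cdkn2d and Abhd18, Ctss to Cebpg and Rgs1, Cst3 to Taf9 and Nsmce4a, and Ctsk, with the weakest match, to Hes7 (r = 0.922) and Pinx1. These correlations describe 12 arrays in 3 groups that share slides and treatment, so the differences between groups dominate them.

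The genes around cathepsin activity were read from lists of pathway members. Of 14 other cathepsin genes, 6 were tested, and in LPS_IFNg against control 1 was higher (Ctsw, 1.11) and 4 were lower. Of all genes, 33.6% were higher and 35.5% lower in this comparison. Ctsw was well above background on 3 of 4 control arrays and on 2 of 4 LPS_IFNg_emodin arrays. Ctsf fell by 1.42 on the log2 scale. Ctso was at least 3.95-fold lower, Ctse at least 2.70-fold lower and Ctsg at least 1.49-fold lower, since none was well above background on any LPS_IFNg array. Each bound takes the lowest signal that was well above background on an array in place of a dim probe's own signal, where that is the higher. With emodin, Ctsa (0.66), Ctsf (0.75) and Ctse (at least 1.17-fold) were higher than in LPS_IFNg and Ctsw was lower (-0.83), although Ctsa turned to -0.03 and Ctsf was 0.05 under spike-in scaling, neither called. Ctsa encodes the carboxypeptidase that protects lysosomal glycosidases, and its 2 probes disagreed. The second gave 1.70 with emodin against LPS_IFNg, but -2.06 in LPS_IFNg against control, where the one used gave 0.05, and -0.36 in LPS_IFNg_emodin against control, where the one used gave 0.71.

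Among 16 other cystatin and stefin genes, 6 were tested. Stfa3 (3.70), Csta2 (3.40) and Stfa2l1 (at least 2.63-fold) were higher in LPS_IFNg than in control cells, and Cst6 (-1.42) and Stfa2 (-0.34) were lower. In LPS_IFNg_emodin, Stfa3 (-4.83), Csta2 (-3.53) and Stfa2l1 (at least 1.84-fold) were lower than in LPS_IFNg, and Stfa2 was higher (1.15), each with the same call under quantile and spike-in scaling. Stfa3 was well above background on 2 of 4 LPS_IFNg_emodin arrays and Csta2 on 3 of 4. Cst6 was so on 1 of 4 LPS_IFNg arrays, so the sizes of these differences rest partly on dim signal. Stefins are cytosolic cystatins whose mouse genes are near-identical copies, so probes may share signal between them. Cstb, the single-copy stefin B, did not pass in either comparison, at -0.18 and 0.04, but under quantile scaling it was called lower in both (-0.39 each).

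Of 8 other inhibitors, 5 were tested. Serpinb9, the granzyme B inhibitor, was 5.28 ± 0.10 higher in LPS_IFNg than in control cells on the log2 scale and lower with emodin than in LPS_IFNg (log2 difference -4.80 ± 0.10). Ctla2b, a propeptide-like inhibitor, was higher with LPS and IFNg (1.20) and lower with emodin (-2.42). Serpinb1a, an inhibitor of neutrophil serine proteases, was lower in both steps (-1.47 and -2.34). Serpinb6a was lower with LPS and IFNg (-0.97) and higher with emodin (0.55), a call that was lost under spike-in scaling (-0.14). Ctla2a did not pass in either, at -0.72 and -0.41.

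All 11 genes of cathepsin maturation and sorting were tested. In LPS_IFNg against control cells, 5 were higher and 4 lower, or 2 and 4 under quantile scaling. Among the 13164 genes tested, 33.6% were higher and 35.5% lower in that comparison, or 3887 and 5458 genes under quantile scaling. With emodin, 5 were higher and 2 lower than in LPS_IFNg, or 2 higher and 7 lower under spike-in scaling. Of all genes, 36.6% were higher and 35.6% lower on the first scale, and 9.13% and 64.7% on the second, so the 7 lower were near the background. The 2 called higher on every scale were Lgmn and Tfeb. Lgmn encodes legumain, which processes several cathepsins, and differed by -1.66 ± 0.07 between LPS_IFNg and control and by 1.42 ± 0.07 between LPS_IFNg_emodin and LPS_IFNg. Tfeb encodes the transcription factor of lysosomal genes that binds the CLEAR element, and differed by -1.64 ± 0.07 and 1.82 ± 0.07. Lgmn, Tfeb, Ctsd and Ctsl shared a lower level in LPS_IFNg and a higher one with emodin. In the other pathway lists, Ctse, Elane and Stfa2 were called the same way on every scale. Ctse was well above background on no LPS_IFNg array and on only 2 of 4 LPS_IFNg_emodin arrays. A link between these genes was not tested. Sort1, encoding sortilin, differed by -4.49 and 1.23 on the probe used, and its 3 probes spanned -4.49 to -0.36 for the first of these. The mannose 6-phosphate receptor gene M6pr was higher with LPS and IFNg (1.56). Mitf and Gnptab were lower with emodin on every scale (-1.01 and -0.99). Psap, the saposin precursor, was higher in both steps (0.77 and 0.35), but its emodin difference was -0.34 and called lower under spike-in scaling.

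Partners of cathepsins in antigen processing moved together with LPS and IFNg. All 8 tested were higher in LPS_IFNg than in control cells, where 33.6% of all genes were. The 8 included Ciita, the MHC class II transactivator (4.05 ± 0.17), H2-Ab1 (3.54 ± 0.19), H2-DMb1 (2.34 ± 0.13) and Cd74, the invariant chain that Ctss trims (2.53 ± 0.20). With emodin, 4 were lower than in LPS_IFNg, where 35.6% of all genes were. The 4 were Ciita (-1.16), Cd74 (-1.02), H2-DMa (-0.94) and H2-DMb1 (-0.32), and 4 did not pass. Under quantile scaling 6 were called lower, where 5103 of all 13164 genes were. Under spike-in scaling all 8 were called lower, where 64.7% of all genes were. H2-Ab1 differed by -0.02 ± 0.19, and by -0.47 under quantile scaling. All 8 stayed higher in LPS_IFNg_emodin than in control cells, where 39.8% of all genes were.

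Of 8 serine protease genes whose products cathepsin C activates, 4 were tested. Gzma was higher in LPS_IFNg than in control cells (1.74) and at least 3.11-fold lower with emodin than in LPS_IFNg, with no emodin array well above background. Elane, encoding neutrophil elastase, was lower with LPS and IFNg (-0.85) and higher with emodin (1.14). The summed signal of 7 neutrophil markers was 19.6 to 23.7 in LPS_IFNg_emodin, 8.18 to 13.1 in LPS_IFNg and 14.2 to 23.9 in control cells, and it is mostly the signal of Elane itself. Among the 4 other tested markers, Mmp8 (1.32), Mpo (at least 1.58-fold) and Ltf (at least 1.18-fold) were higher with emodin than in LPS_IFNg, and Camp was lower (-1.84). With Elane, 4 of 5 were thus called higher, or 3 of 5 under spike-in scaling, where 36.6% and 9.13% of all genes were. Their part in the Elane values was not tested. Of 5 NK cell markers, one of them Gzma, Prf1 was well above background on all arrays. Eomes was above background on no array, and Klrb1c only on some control arrays. Ncr1 was above background on some but not all LPS_IFNg arrays, and on no LPS_IFNg_emodin or control array. Their part in the Gzma values was not tested. Cma1 did not pass in either comparison.

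**Figure D4:**
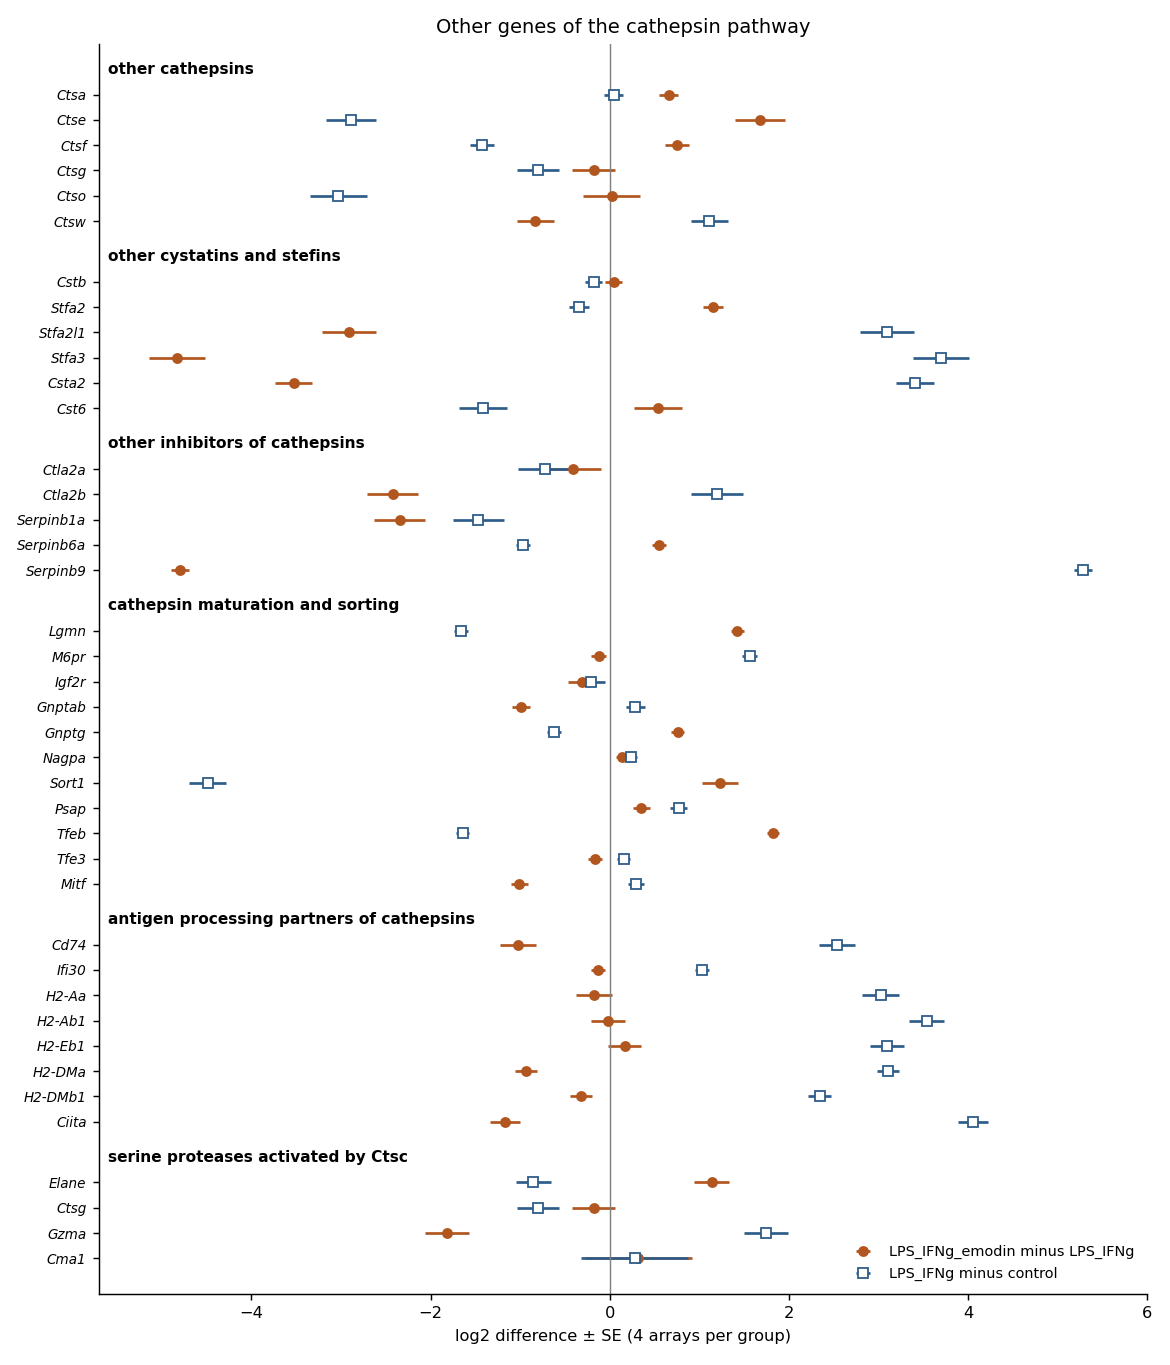
Log2 differences with SE for the tested genes of 6 pathway lists, with filled circles for LPS_IFNg_emodin minus LPS_IFNg and open squares for LPS_IFNg minus control (4 arrays a group, 75th percentile scale). Points of Ctse, Ctso, Ctsg, Stfa2l1 and Gzma include groups at background, where the text gives bounds. Stfa3, Csta2, Ctsw, Cst6, Ciita and Cma1 were well above background on only part of the arrays of some groups. Stfa3, Csta2 and Serpinb9 were lower with emodin on every scale, Lgmn and Tfeb were higher on every scale, and Psap changed direction under spike-in scaling.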

How the data were processed

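RNA of 12 samples was hybridised to 1-colour Agilent arrays. Per the file headers and the submitters' processing notes, the authors extracted spots with Agilent Feature Extraction 10.7.3.1, which gives a background-subtracted processed intensity for each spot. The authors also deposited a table of log2 values. It gave nearly the values of quantile scaling, its normalization and centring are unstated, its column medians ran from -0.03 to 0.04, and 3 of its control columns match scanner files of other control replicates. It served as an alternative. The 10 genes and all lists were chosen with earlier results of these data known.

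From the deposited intensities, log2 values were scaled to the 75th percentile of each array over non-control spots that were not outliers, and spots of a probe were averaged. Probes were kept if every array of 1 or more groups had them well above background (27370 of 55681), and 27509 of all probes had a gene name through RefSeq accessions. A gene was represented by its kept probe of highest mean level, giving 13164 genes. Groups were compared with limma 3.58.1 in R 4.3.3 on all 12 arrays, two-sided, with Benjamini-Hochberg adjustment over all genes. The script was tested on simulated data. The precision is limited by 4 arrays a group.

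Same-numbered LPS_IFNg_emodin and LPS_IFNg arrays deviated together in all 4 pairs (correlation 0.15 to 0.28, against -0.24 to 0.05 for other numbers), so the numbers were read as pairs. Numbers did not pair either group with control (-0.19 to 0.14). Alternatives changed the scaling, the background correction (normexp with an offset of 50 on median spot signals), the probe filter, the probe rule, the samples and the block.

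All 10 genes, every tested gene of the pathway lists and the 2 genes most like each of the 10 could be named. Genes singled out on bright levels were chosen after their values were seen.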

Additional observations from a re-analysis of the deposited data

Results flagged for a closer look

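Of 147 groups of 4 arrays examined, 6 had 1 array far from the other 3, and chance alone gives about 1 in 20. Ctss was at 10.03 on LPS_IFNg_emodin replicate 1, above 9.89 to 9.91 on the others. Cst3 was at 8.38 on LPS_IFNg replicate 1, above 8.18 to 8.20. Stfa2 was at -2.35 on LPS_IFNg replicate 1, below -2.06 to -2.04. Psap was at 9.37 on LPS_IFNg replicate 4, above 9.21 to 9.23. Ifi30 was at 5.88 on control replicate 4, below 6.00 to 6.02. H2-DMa was at 0.91 on control replicate 3, below 1.38 to 1.42.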

How the results depend on the processing

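Across 25 alternative settings, 639 of 697 values of the 10 genes kept their direction and their side of the threshold, and 13 of 30 results did so in every setting. Genes called lower in LPS_IFNg than in control numbered 2, but 5 under quantile scaling and with the authors' table, and 4 with the percentile taken over detected probes or with control arrays labelled female only. With emodin against LPS_IFNg, 9 were called (7 higher), but 5 (2 higher) under quantile scaling, spike-in scaling and the authors' table, and 1 rather than 2 was lower with probes above background on all 12 arrays, where Cst7 was not tested. In LPS_IFNg_emodin against control, 8 were higher and 0 lower, but 3 and 4 under quantile scaling and with the authors' table. Directions turned for LPS_IFNg_emodin minus LPS_IFNg under spike-in scaling in Ctsb (-0.16), Ctsk (-0.17), Ctss (-0.25), Ctsz (-0.12) and Cst3 (-0.042), and in Ctss under quantile scaling (-0.037) and with the authors' table (-0.037). For LPS_IFNg_emodin minus control they turned under quantile scaling and with the authors' table in Ctsb (-0.24 in both), Ctsd (-0.15 in both), Ctsk (-0.41 and -0.42) and Cst3 (-0.24 and -0.25), and in Ctsk with control arrays labelled female only (-0.037). Differences near 0 turned when arrays were left out. Ctsh with emodin turned to 0.018 without LPS_IFNg_emodin replicate 2 and to 0.0058 without LPS_IFNg replicate 3, and was 0.012 without replicate 3 of both groups. Ctsc in LPS_IFNg_emodin minus control was 0.032 without replicate 3 of both groups or of LPS_IFNg_emodin alone, and 0.0018 without control replicate 2. In the same comparison Ctsk was called without control replicate 1 (0.34), Ctsd was not called with normexp (0.23), and Cst3 was not called with detected probes (0.20) or female-labelled controls (0.24). The causes were not tested. The fit with the replicate number as a block gave the same 9 calls for emodin against LPS_IFNg and changed no call of the 10 genes in any comparison. Over all genes, 1202 were called higher and 8520 lower with emodin under spike-in scaling, against 4813 and 4691. Without a filter on dim probes, 7783 were higher in LPS_IFNg and 8406 in LPS_IFNg_emodin than in control, against 4425 and 5241. The median of all genes in LPS_IFNg_emodin minus control was 0.02, and -0.14 under quantile scaling, -0.18 with detected probes and 0.29 without the filter. Arrays carry no counts, and levels near background have the least precision.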
